A study of Mus musculus with 4 samples.

Results

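The Hedgehog pathway genes described here are Smo, Ptch1, Gli1, Gli2, Gli3, Sufu and Kif7, the core of the machinery that receives the Hedgehog signal and passes it to the GLI transcription factors. They were taken by symbol, and all 7 were found among 23282 genes with usable values in RNA sequencing of mouse DN3 thymocytes. The list was drawn up after differences between the genotypes had been seen in these libraries, so it was in effect chosen by the genotype contrast, and the genotype values of the 7 genes are a description. Where counts of these genes past a threshold are printed, they describe the fits and are not evidence of a difference.

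Hedgehog ligands are secreted proteins that bind PTCH1. Without ligand PTCH1 holds the membrane protein SMO inactive, and with ligand SMO acts through the primary cilium so that the GLI factors activate target genes instead of being processed into repressors. SUFU binds the GLI proteins and restrains them, and KIF7 is a ciliary kinesin that organises the same step. In the thymus the stroma makes Hedgehog ligands, and SMO has been linked to the expansion of the earliest T cell precursors before the pre-T cell receptor checkpoint.

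The cells were DN3 thymocytes, the CD4-negative and CD8-negative stage at which the T cell receptor beta chain is assembled. They had developed in irradiated mice from transferred fetal liver cells and were sorted 16 weeks after the transfer. The donors were wild type (WT) or of the genotype Gata3(g/g), described by the submitters as a hypomorph, all samples being labelled C57BL/6, with 2 libraries of each. By their sequencing identifiers, replicates 1 of both genotypes came from one sequencing run, called run 1 here, and replicates 2 from another, called run 2. The labels do not say what the altered allele is, whether replicates came from separate animals, or how cells of the host were kept out of the sort, so p-values cover only the spread between these libraries.

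Total fragments per library lay between 14331705 and 26901913. Gata3 RNA measured 62.4 and 58.5 FPKM in WT and 119.9 and 96.1 FPKM under the Gata3(g/g) label. It was thus not lower under that label, and every direction given below rests on the labels. These libraries hold no measure of GATA3 protein. FPKM is the fragment count scaled to transcript length and library size. Of the DN3 markers, Il2ra, which encodes CD25, ranged from 261.0 to 568.6 FPKM and Ptcra, the pre-T cell receptor alpha chain, from 46.5 to 61.1 FPKM, while Cd4 stayed at or below 0.492 FPKM. Run 2 libraries also held red cell transcripts: 6 erythroid markers summed to 459.9 and 587.2 FPKM in run 2 and to 1.21 and 2.19 FPKM in run 1.

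Smo, the signal transducer, was the gene of the 7 with the largest difference between the genotypes among those with over 100 fragments in every library. Its gene lies on chromosome 6 from 29735497 to 29761366 (GRCm38, plus strand). The 250 bases just before its RefSeq start, at chr6:29735247-29735496 on the plus strand of GRCm38.p6, are shown because Smo has the lowest fitted fold change of the 4 tested genes of the list.
Smo upstream sequence: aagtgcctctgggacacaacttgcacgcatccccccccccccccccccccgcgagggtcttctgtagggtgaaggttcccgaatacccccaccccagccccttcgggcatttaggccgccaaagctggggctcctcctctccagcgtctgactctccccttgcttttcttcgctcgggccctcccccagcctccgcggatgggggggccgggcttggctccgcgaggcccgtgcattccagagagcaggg
The stretch is 68.4% G or C, against a median of 52.4% over the 32841 RefSeq windows of this length. It was searched on both strands for the GLI consensus GACCACCCA, for its part CCACCCA and for the GATA forms, which are AGATAA or AGATAG or else TGATAA or TGATAG, and nothing is in capitals because none of these motifs occurs in it. They occur in none of the windows of the 6 genes of the list that the RefSeq table holds (Smo, Ptch1, Gli2, Gli3, Sufu and Kif7). The windows of Ptch1 and Gli2 lie inside the gene positions given below, and that of Kif7 lies partly inside them. Over all windows, 0.225% hold GACCACCCA, 8.11% hold CCACCCA, which lies within it, and 26.5% hold a GATA form.

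In the WT libraries Smo stood at 12.5 FPKM in run 1 and 18.97 FPKM in run 2 (15.7 ± 4.56, SD, n = 2). Under the Gata3(g/g) label it stood at 5.75 and 6.25 FPKM (6.00 ± 0.357, SD, n = 2). These values rest on 1887, 1978, 1153 and 843 fragments. The genotypes did not overlap, and WT replicate 2 was the highest library. Within run 1 the level labelled Gata3(g/g) was 0.465 of the WT level by fragments scaled to library size (95% exact interval 0.432 to 0.501), and within run 2 it was 0.328 of it (0.302 to 0.355), intervals that cover counting error only. The fitted log2 fold change, Gata3(g/g) over WT, was −1.39 ± 0.273 (SE) with the genotype alone in the edgeR model and −1.36 ± 0.149 (SE) with the run as a replicate block. In the fit with the block 86 of 10224 tested genes had a lower log2 fold change than Smo. Smo exons overlap no other gene's exons in GENCODE vM21.

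Ptch1 encodes the receptor and is itself a target of the pathway, so its RNA is used as a readout of Hedgehog signalling. It was not lower in both runs. Ptch1 (chromosome 13, 63508328 to 63573460, minus strand) measured 5.26 and 9.31 FPKM in WT (7.29 ± 2.87, SD, n = 2) and 7.26 and 9.23 FPKM under the Gata3(g/g) label (8.24 ± 1.39, SD, n = 2), and the genotypes overlapped. The ratio of Gata3(g/g) to WT was 1.40 in run 1 (95% exact interval 1.28 to 1.52) and 0.985 in run 2 (0.908 to 1.07). Its log2 fold change was 0.18 ± 0.341 (SE) without the block and 0.23 ± 0.149 (SE) with it. The value without the block became −0.20 when WT replicate 1 was left out, 0.67 when WT replicate 2 was, and −0.012 when Gata3(g/g) replicate 2 was.

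The order of receptor and transducer differed between the genotype labels. Ptch1 FPKM was 0.420 and 0.491 of Smo FPKM in the WT libraries, and 1.26 and 1.48 times Smo FPKM under the Gata3(g/g) label. Smo was the most abundant of the 7 genes per length in both WT libraries, and Ptch1 in both others.

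Gli1, a transcriptional activator and the other standard target gene of the pathway, was low under both genotype labels. It stood at 0.766 and 0.951 FPKM in WT and at 0.855 and 1.18 FPKM under the Gata3(g/g) label, from 91 to 157 fragments, and the genotypes overlapped. The ratio was 1.13 in run 1 (95% exact interval 0.875 to 1.46) and 1.23 in run 2 (0.943 to 1.62), and both intervals include 1. A mean FPKM of at least 1 was required for testing, which left out Gli1 at 0.938 together with Gli2 and Gli3. In an edgeR fit of all genes with at least 1 fragment, with the block, its log2 fold change was 0.23 ± 0.257 (SE). Gli1 (chromosome 10, 127329882 to 127341579, minus strand) shares 6.55% of its exon bases with opposite-strand genes, among them Arhgap9, a GTPase-activating protein gene at 97.6 to 103.1 FPKM, and whether counting used the strand is not given in the sources used here.

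Gli2, the factor that carries most of the activator function in many tissues, and Gli3, which mainly yields the repressor form, were barely detected. Gli2 (chromosome 1, 118834061 to 119054405, minus strand) had 5 and 9 fragments in WT and 6 and 22 under the Gata3(g/g) label, which is 0.0193, 0.0502, 0.0174 and 0.0949 FPKM. Gli3 (chromosome 13, 15463723 to 15730026, plus strand) had 1 and 18 fragments in WT and 15 and 18 in the others, from 0.00306 to 0.0796 FPKM. Run 1 libraries were the low ones for both genes, and the genotypes overlapped. For Gli3 the ratio in run 1 was 11.4 with a 95% exact interval of 1.76 to 480.4, since the WT library held 1 fragment, and in run 2 it was 0.769 (0.377 to 1.57). For Gli2 the intervals, 0.232 to 3.78 in run 1 and 0.832 to 4.64 in run 2, include 1. With so few fragments no genotype difference is read for these 2 genes. The Gli3 interval in run 1 excludes 1 and that in run 2 includes it. Of 9230 genes with a mean under 0.2 FPKM, 39.9% were higher in run 2 in both genotypes and 5.76% lower, as background to the run pattern of Gli2 and Gli3.

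**Figure D1:**
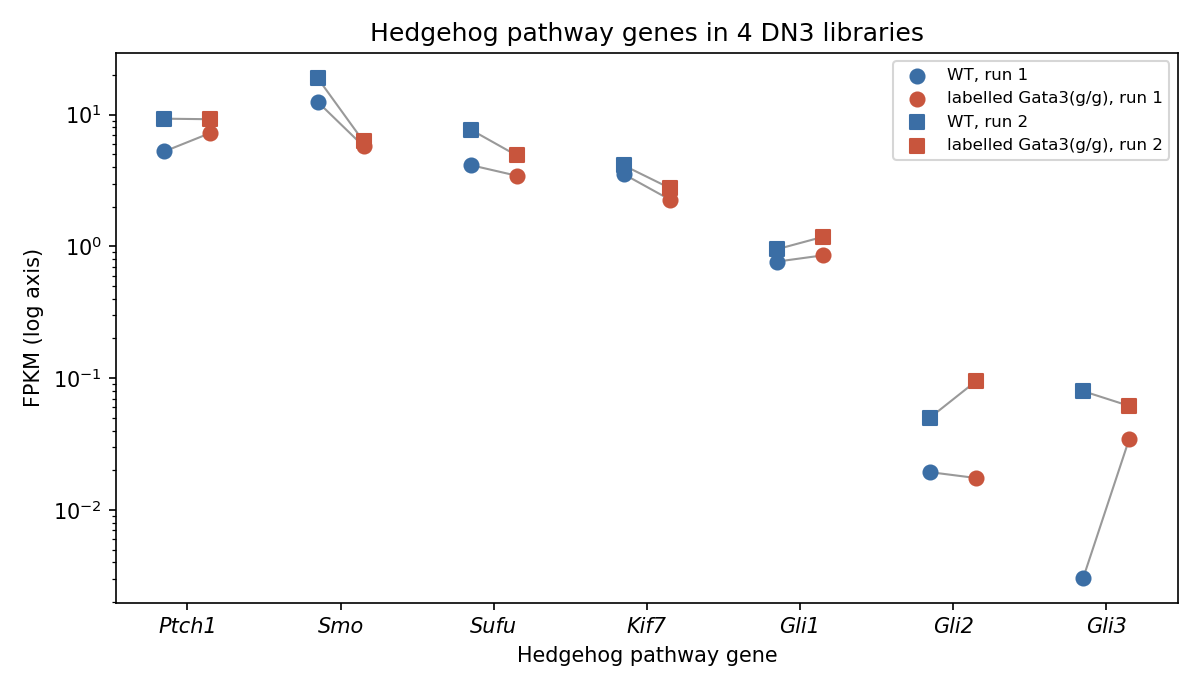
FPKM on a log axis for the 7 Hedgehog pathway genes, with WT libraries in blue and libraries labelled Gata3(g/g) in red, circles for run 1, squares for run 2 and grey lines joining the libraries of a run. Smo lies at 12.5 and 18.97 FPKM in WT and at 5.75 and 6.25 FPKM in the others, Ptch1 and Gli1 overlap between the genotypes, and Gli2 and Gli3 lie below 0.1 FPKM in every library.

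Kif7, the ciliary kinesin, was lower under the Gata3(g/g) label by a similar amount in each run. It measured 3.53 and 4.11 FPKM in WT (3.82 ± 0.411, SD, n = 2) and 2.26 and 2.77 FPKM in the others (2.52 ± 0.357, SD, n = 2), from 427 to 608 fragments, and the genotypes did not overlap. The ratio was 0.649 in run 1 (95% exact interval 0.577 to 0.731) and 0.670 in run 2 (0.587 to 0.764). Its log2 fold change was −0.60 ± 0.241 (SE) without the block and −0.60 ± 0.155 (SE) with it. Kif7 (chromosome 7, 79698098 to 79715772, minus strand) shares 20.3% of its exon bases with opposite-strand genes, so without known strand its value is uncertain. Most of the overlap, 877 of 928 bases, is with 9330171B17Rik, which was not analysed here, and 51 bases are with Ticrr. Ticrr, a DNA replication initiation gene listed under its older symbol 5730590G19Rik, stood at 5.09 and 7.88 FPKM in WT and 4.25 and 7.24 FPKM in the others.

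Sufu, the inhibitor that binds the GLI proteins, lay between these patterns. It measured 4.14 and 7.69 FPKM in WT (5.91 ± 2.51, SD, n = 2) and 3.44 and 4.90 FPKM under the Gata3(g/g) label (4.17 ± 1.04, SD, n = 2), from 359 to 461 fragments, and the genotypes overlapped. The ratio was 0.841 in run 1 (95% exact interval 0.728 to 0.973) and 0.632 in run 2 (0.550 to 0.726). Its log2 fold change was −0.51 ± 0.395 (SE) without the block and −0.46 ± 0.175 (SE) with it, and 0.029 without WT replicate 2. The gene (chromosome 19, 46396896 to 46488804, plus strand) overlaps no other exons.

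**Figure D2:**
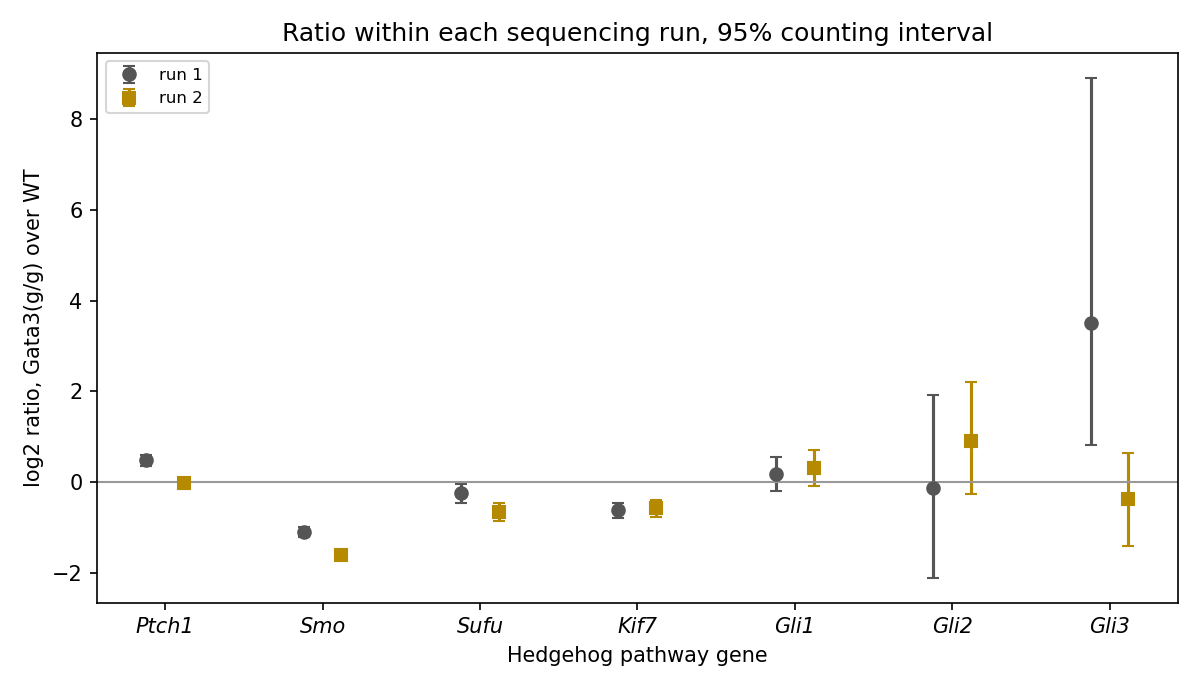
Log2 ratio of Gata3(g/g) to WT within run 1 (grey circles) and run 2 (yellow squares) for each gene, from fragments scaled to library size, with 95% exact counting intervals as bars. Smo, Kif7 and Sufu lie below 0 in both runs with intervals that exclude 0, and Ptch1 lies above 0 in run 1 and at 0 in run 2. The interval of Gli3 in run 1 spans ratios from 1.76 to 480.4.

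A gene was called where edgeR's adjusted p over all 10224 tested genes was under 0.05. With the genotype alone in the model 0 of the 4 tested Hedgehog genes were called, where 0% of all tested genes were. That model gave 393 genes an unadjusted p under 0.05, and the same design gave 88 called genes by DESeq2 and 5 by limma. With the replicate block 2 of the 4 were called, both lower (Smo and Kif7), against 6.9% of all tested genes called and 2.99% called lower. FPKM of the genotypes did not overlap, with the libraries labelled Gata3(g/g) lower, for 2 of the 4, against 14.8% of tested genes. Without the block Smo was among the 88 genes called by DESeq2 and the 58 called by edgeR with no level filter, and limma called none of the 4. With the block DESeq2 called 417 of the 10224 tested genes, with Smo among them but not Kif7. Limma with the block called 16 of the 10224 and 0 of the 4. The genes were picked with this contrast known, so nothing is read from these counts. In the authors' deposited table the log2 fold changes were −1.39 for Smo, −0.60 for Kif7, −0.50 for Sufu, 0.18 for Ptch1 and 0.25 for Gli1, and Gli2 and Gli3 are marked there as not tested.

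Other cell types were checked by their markers, since in bulk RNA fewer cells of a type and less RNA per cell cannot be told apart. The stromal lists were mixed. Of 7 epithelial markers, which summed to 15.1 and 11.3 FPKM in WT and 10.3 and 12.7 FPKM in the others, Foxn1 and Krt5 did not exceed 0.0841 FPKM, while Epcam ranged from 7.13 to 12.7, Cldn4 from 0.587 to 2.87 and Aire from 0.902 to 1.11 FPKM. Of 8 mesenchymal markers, which summed to 375.8 and 644.0 FPKM in WT and 342.0 and 523.4 FPKM in the others, Pdgfra and Col1a2 did not exceed 0.0229 FPKM, while Pdgfrb ranged from 2.77 to 4.13 FPKM and Thy1, which thymocytes express too, from 338.9 to 639.6 FPKM. Within runs 1 and 2, Cldn4 had genotype differences of −1.17 and −0.65 in log2 CPM and Pdgfrb of −0.27 and −0.58. These had the same direction as Smo and Kif7, and so had Thy1, at −0.115 and −0.312. Epcam changed direction, at −0.576 and 0.43, and Aire, which was not tested, was higher in both runs, at 0.306 and 0.135. Of the tested markers 0 of 2 epithelial, 0 of 2 mesenchymal, 0 of 1 endothelial and 0 of 1 B cell markers were called with the block, against 6.9% of all tested genes. Without the block no list of markers had a called gene. Markers of neighbouring stages moved with the genotype, and of 8 DN3 and DN4 markers Il2ra and Dtx1 were called higher with the block, against 3.9% of all tested genes. The 4 progenitor markers summed to 34.8 and 39.5 FPKM in WT and to 55.7 and 61.7 FPKM under the Gata3(g/g) label, with Cd44 and Il7r called higher with the block out of 3 tested and Flt3 no higher than 0.189 FPKM. The 4 double positive markers summed to 7.003 and 3.88 FPKM in WT and to 11.3 and 10.5 FPKM in the others, with Cd8a and Cd8b1 called higher out of 3 tested. Of 10 myeloid markers, 4 were tested and 1, Lyz2, was called higher with the block. The other 3 were not called and had log2 fold changes of −0.432 (Cd68), −0.08 (S100a8) and −0.8 (S100a9). Among 6 erythroid markers 1 was called higher, Hba-a2, an alpha-globin gene. It was listed at 0 in both run 1 libraries, and in run 2 at 10.7 FPKM in WT and 30.4 FPKM under the other label. The part of these shifts in the Smo and Kif7 differences was not tested.

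The contrast between the sequencing runs was not used to choose the genes, and it could be tested. Ptch1 and Sufu were higher in run 2 in both genotypes. With the genotype in the edgeR model, the log2 difference of run 2 over run 1 was 0.61 ± 0.150 (SE) for Ptch1 (adjusted p = 0.00525) and 0.72 ± 0.176 (SE) for Sufu (adjusted p = 0.00475). By genotype, the difference in log2 CPM (fragments over library size, prior count 2) was 0.86 in WT and 0.36 in Gata3(g/g) for Ptch1, and 0.93 and 0.51 for Sufu. Thus 2 of the 4 tested genes were called higher in run 2 and 0 lower, against 34.8% of all tested genes called, 17.5% higher and 17.3% lower.

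Smo and Kif7 did not pass between the runs. Smo had a run difference of 0.39 ± 0.147 (SE, adjusted p = 0.05001 by edgeR, just above the threshold), 0.64 in WT against 0.13 in Gata3(g/g), and with RLE size factors in place of TMM it was called at 0.39. Kif7 had one of 0.28 ± 0.155 (SE, adjusted p = 0.174), 0.26 in WT and 0.30 in Gata3(g/g). By limma, and by edgeR without the genotype in the model, neither Ptch1 nor Sufu passed. Erythroid markers moved with the run as given above, and of the myeloid markers S100a8, a neutrophil gene, stood at 0.660 and 0 FPKM in run 1 and at 33.3 and 40.2 FPKM in run 2. Their part in the run differences was not tested.

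**Figure D3:**
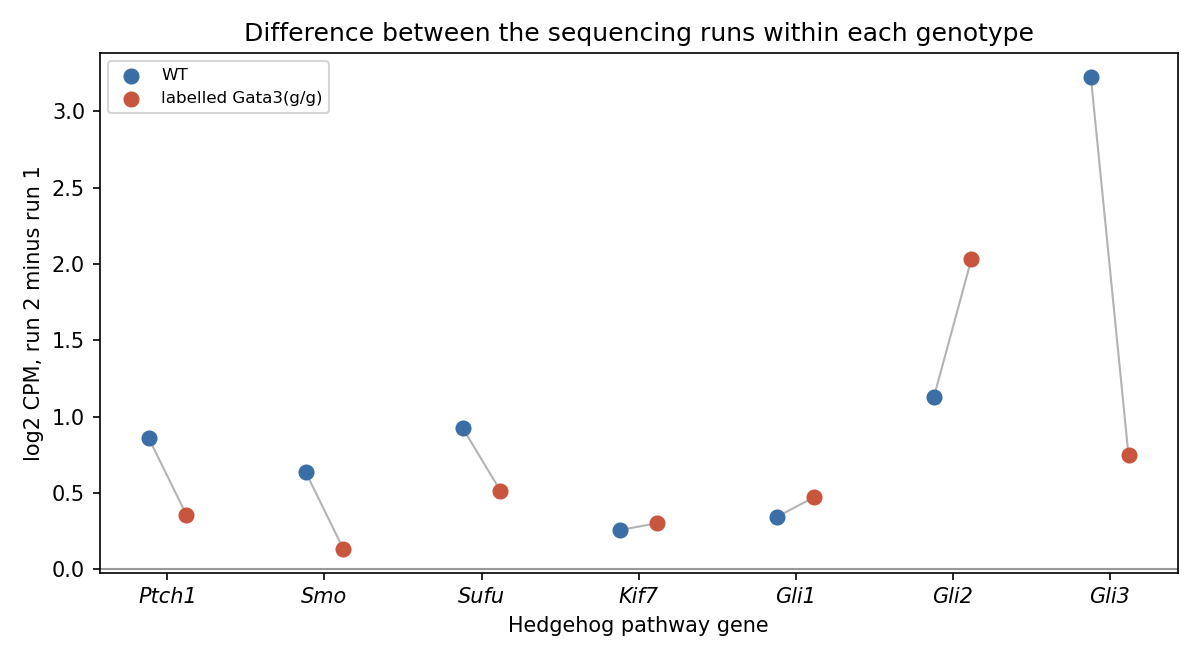
Difference in log2 CPM between run 2 and run 1 for each gene, in WT (blue) and in libraries labelled Gata3(g/g) (red). All values are above 0, Ptch1 at 0.86 and 0.36 and Sufu at 0.93 and 0.51, and the widest gap between genotypes is that of Gli3, whose WT library of run 1 held 1 fragment.

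The wider pathway was followed in 6 lists that hold 127 further genes, of which 71 reached the level for testing. With the block 1 of the 71 was called higher, 0 lower and 70 were not called, against 3.9% of all tested genes called higher. Without the block 0 of the 71 were called. The median log2 fold change of the 71 with the block was 0.10, beside 0.0081 for all tested genes.

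Hedgehog ligand genes were near the limit of detection, and only the release step had a well expressed gene. Of 11 genes for ligands and their release 1 was tested. Shh had 0 and 1 fragments in WT and 5 and 11 under the Gata3(g/g) label. Ihh had 3, 18, 13 and 4 fragments and Dhh 1, 19, 2 and 15, in the order WT replicates 1 and 2, then Gata3(g/g) replicates 1 and 2, with no common order by genotype. Disp1, which encodes the transporter-like protein that releases lipid-bearing Hedgehog from the cells that make it, stood at 5.77 and 8.08 FPKM in WT and 6.84 and 7.55 FPKM in the others (0.08 ± 0.142, SE, on the log2 scale, with an edgeR adjusted p = 0.811).

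Co-receptors and ligand antagonists were also scarce, 1 of 8 being tested. Cdon, which encodes a membrane protein that binds Hedgehog together with PTCH1, stood at 0.832 and 1.42 FPKM in WT and 1.40 and 1.61 FPKM in the others (0.47 ± 0.195, SE, on the log2 scale, with an edgeR adjusted p = 0.175). Hhip, which encodes a decoy that binds the ligands and is itself a Hedgehog target, had 2 and 18 fragments in WT and 12 and 6 in the others.

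Genes for kinases, G proteins and ubiquitin ligases that act on SMO or the GLI proteins were mostly expressed, 29 of 34 being tested. With the block 0 of the 29 were called for the genotype, against 6.9% of all tested genes. Without the block 0 were called, against 0%. Their log2 fold changes with the block ran from −0.26 to 0.42 with a median of 0.04. Gnas, which encodes the stimulatory G protein alpha subunit upstream of protein kinase A, was the most abundant, at 429.9 and 427.0 FPKM in WT and 439.3 and 386.7 FPKM in the others (−0.06 ± 0.165, SE). Between the runs 6 of the 29 were called higher and 4 lower in run 2, against 17.5% and 17.3% of all tested genes, among the higher Gsk3b, a kinase gene whose product marks GLI proteins for processing (1.17 ± 0.127, SE, edgeR adjusted p = 5.92e-06).

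Of 43 genes of the cilium and of transport within it 33 were tested. For the genotype 0 of the 33 were called with the block, against 6.9% of all tested genes, and 0 without it, against 0%. The log2 fold changes with the block ran from −0.21 to 0.75 with a median of 0.10. Ift20, which encodes a subunit of the transport particle that also serves vesicle traffic in T cells, was the most abundant, at 61.6 and 46.3 FPKM in WT and 55.7 and 59.1 FPKM in the others. The value of 0.75 ± 0.280 (SE, with an edgeR adjusted p = 0.123) was that of Arl13b, a ciliary GTPase gene, at 0.805 and 0.740 FPKM in WT and 1.13 and 1.52 FPKM in the others. Kif7, a ciliary gene itself, is not counted in this list.

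Among 25 target genes beside Ptch1 and Gli1, 7 were tested. Mycn, a growth regulator and Hedgehog target in neural precursors, was called higher with the block, at 4.86 and 3.58 FPKM in WT and 6.53 and 6.63 FPKM under the Gata3(g/g) label (0.65 ± 0.167, SE, adjusted p = 0.0255), and was not called without the block (adjusted p = 0.9997 by edgeR). The other 6 were not called. Cdk6, a cell cycle kinase gene, was the most abundant of them at 161.5 and 217.0 FPKM in WT and 203.7 and 237.2 FPKM in the others (0.24 ± 0.163, SE), and Ccnd2, which encodes cyclin D2, had 16.1, 21.4, 17.2 and 21.6 FPKM.

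None of the 8 GLI-related zinc finger genes of the Glis and Zic families reached the level for testing. Glis2 was the most abundant, at 0.578 and 0.762 FPKM in WT and 0.743 and 1.10 FPKM in the others. Glis3 stood at 0.216 and 0.185 FPKM in WT and 0.502 and 0.573 FPKM in the others, from 19 to 99 fragments. It was called higher when no level filter was applied (edgeR with the replicate block, 1.41 ± 0.403 (SE) on the log2 scale, adjusted p = 0.0145).

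**Figure D4:**
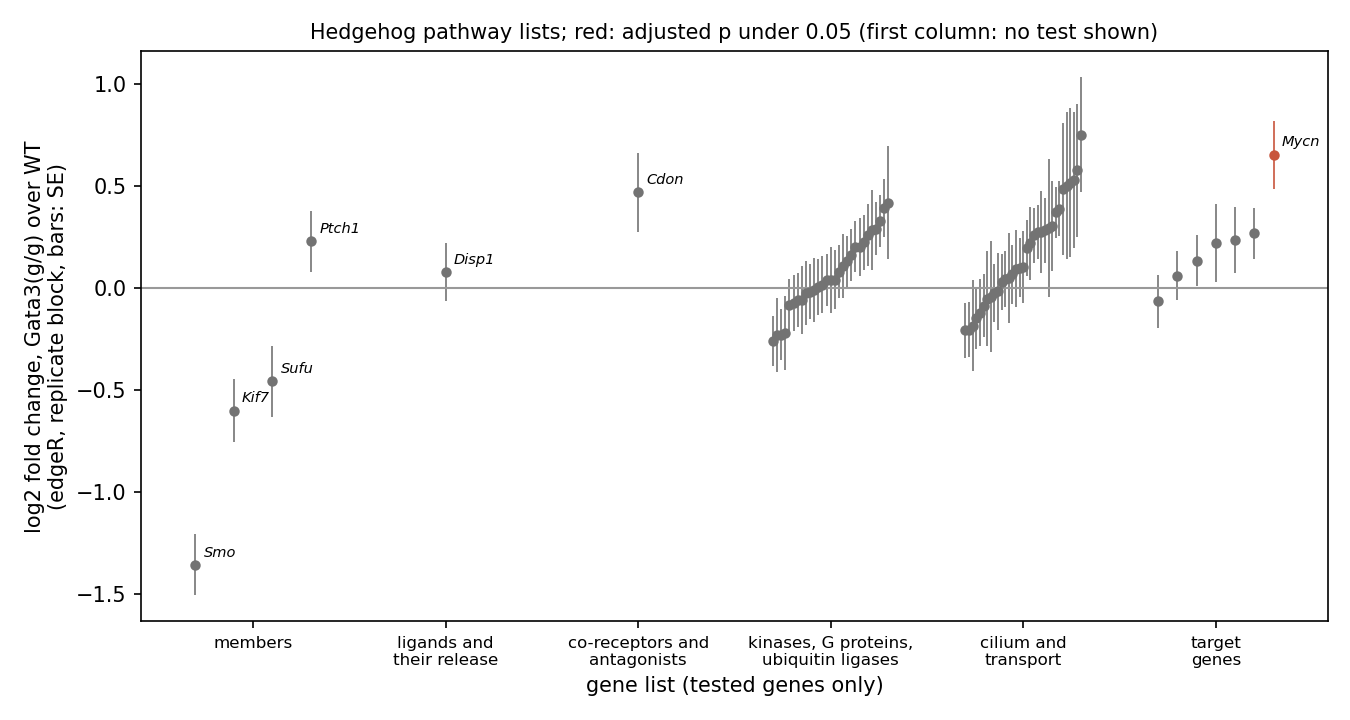
Log2 fold change of Gata3(g/g) over WT by edgeR with the replicate block, with SE bars, for the tested genes of the 7-gene core (no test shown) and of 5 further Hedgehog lists, where the called gene is red. Smo at −1.36 and Kif7 at −0.60 lie below 0 and Mycn at 0.65 above, while the other genes of the further lists lie between −0.26 and 0.75 and were not called.

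The genes whose pattern over the 4 libraries was nearest to that of each tested Hedgehog gene were found by the distance between log2 CPM profiles centred on their mean, 0 being an identical profile. For Smo they were Mir1949 (distance 0.106), Nrtn (0.189), which encodes the growth factor neurturin, and Myo10 (0.20), an unconventional myosin gene. Mir1949 was listed at 0 FPKM in both libraries labelled Gata3(g/g), so the prior count set its profile there, and Nrtn stood at 5.50, 7.76, 2.37 and 2.31 FPKM. For Ptch1 they were the ETS factor gene Erg (0.044), Tgfbr3 (0.060), a co-receptor of TGF-beta, and Rab11fip3 (0.071). For Sufu they were Cox7c (0.039), a cytochrome oxidase subunit gene, 2300009A05Rik (0.044) and 3110062M04Rik (0.051). For Kif7 they were the ribosomal protein genes Rps20 (0.023) and Rpl41 (0.054) and the spliceosome gene Snrpd2 (0.026). With 10224 profiles over 4 libraries near matches are frequent, and these lists describe the profiles only.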

How the data were processed

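Per the submitters' processing notes, TopHat2 2.0.8b, Bowtie2 2.1.0 and Cuffdiff 2.1.1 were used with mm10, while the sources used here give neither annotation nor strand setting. The authors deposited an estimated count of fragments and an FPKM value per gene and library, and a comparison table with mean FPKM, a log2 fold change and a q-value, of which the q-values are not printed here. Of 23285 genes, 3 marked as too deep were dropped, and 5 values with a failed status were kept, none of them in the 7 genes. Estimated counts were rounded (97.7% to 98.9% lay within 0.01 of a whole number) and tested with edgeR 4.0.16 in R 4.3.3 (glmQLFit and glmQLFTest, two-sided, TMM factors 0.983 to 1.02, Benjamini-Hochberg adjustment, mean FPKM of at least 1). DESeq2 1.42.0 and limma 3.58.1 on log2(FPKM + 1) were alternatives. The genotype fits of edgeR, DESeq2 and limma, with and without the block, and the edgeR run fit were also run on simulated data. The other settings were not. The SE is the unshrunken log2 fold change over the square root of F.

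The labels tie the replicate number to the sequencing run, so the numbers pair the libraries, and the run differences of the 2 genotypes correlated across tested genes (Pearson r 0.754, Spearman 0.758), which are not independent replicates. The model with the replicate block keeps 1 residual degree of freedom and that without it 2. A count of 3 fragments equals 0.112 to 0.209 CPM, and it was not used as a filter. The 7 genes, the pathway and marker lists and the rule for named genes were chosen with earlier results of these data known. Named were the 7 genes, each wider-list gene that was called, the most abundant gene of each list and the 3 nearest profiles of each tested gene, and others were named after their values were seen. Gene positions and upstream sequence are from RefSeq GRCm38.p6, the build that mm10 names, and exon overlaps from GENCODE vM21.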

Additional observations from a re-analysis of the deposited data

Results flagged for a closer look

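The genotype difference in log2 CPM had opposite directions in the 2 sequencing runs for 3 of the 7 genes, and the difference between the runs was not tested, since each run holds 1 library of a genotype. Ptch1 was at 0.48 in run 1 and −0.022 in run 2. Gli2 was at −0.092 in run 1 and 0.82 in run 2, from 5 to 22 fragments. Gli3 was at 2.13 in run 1 and −0.35 in run 2, from 1 to 18 fragments. The other 4 genes, Smo, Kif7, Sufu and Gli1, had the same direction in both runs.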

How the results depend on the processing

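Smo and Kif7 kept their direction under each alternative in which they could be fitted, Smo from −1.04 (without WT replicate 2) to −1.69 (without WT replicate 1). Of 81 alternative fold changes of the 7 genes, 6 reversed: Ptch1 without Gata3(g/g) replicate 2 (−0.012) and without WT replicate 1 (−0.203), Sufu without WT replicate 2 (0.029), Gli2 without Gata3(g/g) replicate 2 (−0.882), and Gli3 without Gata3(g/g) replicate 2 (−0.111) and without WT replicate 1 (−0.64). Leaving out 1 library gave −0.203 to 0.669 for Ptch1 and −0.911 to 0.029 for Sufu. Without 1 library the runs are unequally shared between the genotypes. Among 42 alternative within-run differences 0 reversed, and Gli3 in run 1 fell to 0.045 with log2(FPKM + 1) and 0.385 with log2(FPKM + 0.1).

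Genes called for the genotype numbered 0 by edgeR without the block and 705 with the replicate block. The count was 988 with the block and no filter (58 without the block), 348 with the block and an FPKM minimum of 5, 725 with the block and RLE size factors, and 674 with the block and library totals only, where 464 of 674 were higher (68.8%) against 399 of 705 (56.6%). DESeq2 gave 88 without and 417 with the block, limma 5 and 16, and leaving out 1 library 1 to 11. Among the wider Hedgehog genes 0 were called without the block, 1 with the block, with the block and RLE factors, library totals or the minimum of 5, and 2 with the block and no filter. Genes called between the runs numbered 3560, against 2263 by DESeq2, 1040 by limma and 751 without the genotype in the model. In the run fit with no filter, the median run difference of the 10224 tested genes was −0.17, beside −0.0085 with the filter. Leaving out a library from the run contrast was not run, since it leaves no residual degrees of freedom. The cause of these changes was not tested. Gli2, Gli3 and the ligand genes Shh, Ihh and Dhh rest on 0 to 22 fragments per library.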
